A study of Mus musculus with 25 samples.

Results

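RNA of post-mitotic cells of the mouse retina was compared between embryonic day 14 (E14) and postnatal day 2 (P2). The cells came from CD1 mice and were sorted for green fluorescent protein (GFP). Per the labels, the GFP- fraction holds post-mitotic retinal cells and the GFP+ fraction retinal progenitor cells, and no other genotype or treatment is given for any group. The labels do not name the transgene or promoter that carries GFP. Bulk polyA RNA was measured in 4 libraries, E14 GFP- replicates 1 and 2 and P2 GFP- replicates 1 and 2. Genes listed at 1 FPKM (fragments scaled to transcript length and library size) or more in at least 2 of these 4 libraries were taken, which gave 13008 of 28446 genes. The other 8 RNA libraries of the study, GFP- cells at E18 and GFP+ cells at E14, E18 and P2 with 2 libraries each, entered the same model and served as background. Whether replicates are separate animals is not stated, and the p-values below reflect the spread among these libraries alone, which may be technical.

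Retinal neurons leave the cell cycle in a fixed and overlapping order. Ganglion cells, horizontal cells, cones and part of the amacrine cells are born before birth, while most rods, the bipolar cells and the Müller glia follow around and after birth. A newborn photoreceptor first expresses the homeobox genes Otx2 and Crx, and the factors Nrl and Nr2e3 then set rod against cone genes. Ganglion cells are the output neurons of the retina, and many of them die around birth in mice.

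The E14 GFP- libraries were far apart and are kept separate here. Across the 13008 genes, Pearson's r of log2(FPKM + 1) was 0.718 between them and 0.975 between the P2 libraries, while E14 GFP- replicate 2 and E14 GFP+ replicate 2 reached 0.98. These are correlations across genes, which are not independent replicates. The E14 libraries differed at least 4-fold on this scale for 967 genes that were higher in replicate 1 and 748 that were higher in replicate 2. Between P2 replicates 1 and 2 it was 5 and 7 genes. Replicate 1 carried ganglion cell RNA: the mean log2(FPKM + 1) over 43 ganglion cell genes was 6.45 in replicate 1 and 1.95 in replicate 2. Replicate 2 carried RNA of dividing cells, with a mean of 5.18 over 45 G2 and M phase genes against 2.02 in replicate 1. The E14 GFP+ libraries, labelled as progenitors, stood at 6.21 and 5.88 on the same genes. The labels place replicate 2 in the GFP- sort, and whether it was mislabelled or held mostly progenitor RNA was not tested. It also carried lens RNA. The 27 lens genes summed to 5709 FPKM in replicate 2 and to 3.87 FPKM in replicate 1, 15.9 FPKM in P2 replicate 1 and 22.6 FPKM in P2 replicate 2. Cryaa, a lens crystallin, was listed at 2676 FPKM in E14 replicate 2, at 0 in E14 replicate 1 and P2 replicate 1, and at 0.0311 FPKM in P2 replicate 2.

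The label "post-mitotic" was checked against cell cycle genes. Mki67, which marks cycling cells, was listed at 1.69 and 31.5 FPKM in E14 GFP- replicates 1 and 2 and at 42 and 28.8 FPKM at P2. The P2 GFP+ libraries held 88.2 and 115 FPKM. Only E14 GFP- replicate 1 was low in this gene, and the G2 and M phase mean of the P2 GFP- libraries (5.08 and 4.39) lay below that of the P2 GFP+ libraries (6.03 and 6.40) but far above that replicate. The GFP- fraction is therefore called by its sort in what follows, and the share of cycling cells or of their RNA in it was not measured.

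**Figure D1:**
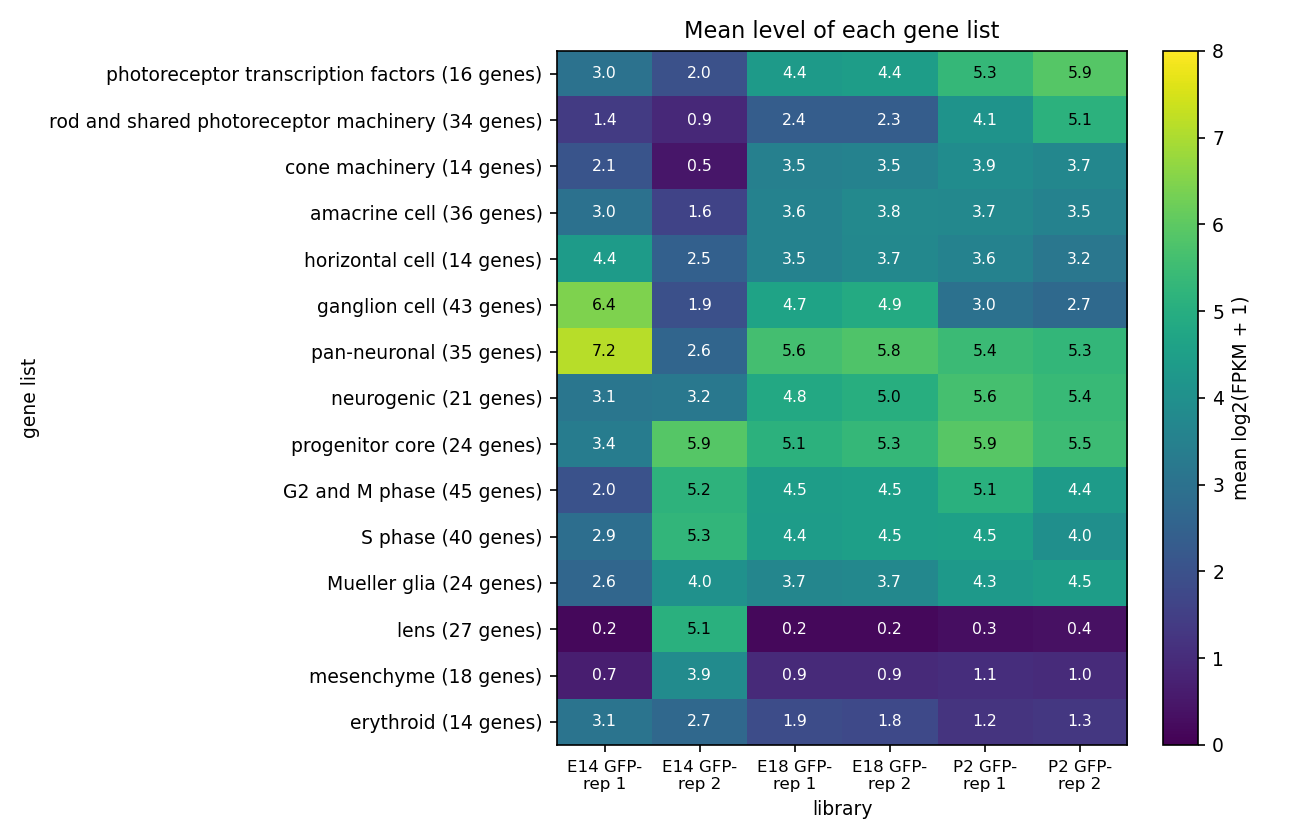
Mean log2(FPKM + 1) of 15 gene lists (rows, all listed genes found in the table) in the 6 GFP- libraries (columns), printed in each cell and shown by colour. The ganglion cell and pan-neuronal means are highest in E14 replicate 1 (6.45 and 7.16), the lens and mesenchyme means in E14 replicate 2 (5.07 and 3.85), and the rod means in the P2 libraries (4.11 and 5.13).

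A gene is said to have risen or fallen when its P2 mean differed from each of the E14 libraries in the same direction, each at an adjusted p under 0.05 (limma, Benjamini-Hochberg over 14276 genes). Differences are given on the log2(FPKM + 1) scale, first against E14 replicate 1 and then against replicate 2, with the standard error (SE) that both share and the larger of both adjusted p. This scale understates the change of genes near 0. Each E14 library stands alone in this fit and is assumed to vary as the other groups do. Pairs of levels are in the order replicate 1, replicate 2.

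Of the 13008 genes, 778 rose (5.98% of genes) and 432 fell (3.32% of genes). Counts within gene lists below are to be read beside these shares. For all 1210, neither P2 library overlapped either E14 library. Over all 13008 genes this held for 22.2% upward and 18.7% downward, so it adds little to the calls. Levels of GFP- cells at E18 lay between E14 and P2 for 563 of the 778 genes that rose and 283 of the 432 that fell. A further 992 genes were called against both E14 libraries in opposite directions, 402 of them (3.09% of genes) higher at P2 than in replicate 1 and lower than in replicate 2, and 590 (4.54% of genes) the reverse. The P2 mean was called higher than E14 replicate 1 for 2686 genes (20.6%) and lower for 2365 (18.2%). Against E14 replicate 2, 2574 genes (19.8%) were higher and 1968 (15.1%) lower. With the E14 libraries pooled as 1 group, 643 genes (4.94%) were higher and 327 (2.51%) lower, and all 970 were among the 1210. The difference from the nearer E14 library reached 3 or more for 98 genes that rose and 5 that fell. By this measure a fall cannot exceed the level of the lower E14 library, while a rise has no such limit. Sncg, at 1334 and 1.99 FPKM at E14, could thus not count as a large fall. The directions are therefore not compared by size.

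Each P2 library lay at least 2-fold above each E14 library for 506 genes (3.89%) and below for 173 (1.33%), a count with no test. The counts tested against both E14 libraries rest on the spread within the other groups of the 12 libraries. The difference between the E14 GFP- libraries does not enter that spread. Without the 4 E18 libraries 405 genes rose and 190 fell, and without P2 replicate 2 it was 432 and 189. Rescaling each library to its total without histone, mitochondrial and abundant noncoding genes moved the median difference over all genes from 0.07 to 0.30 against replicate 1 and from 0.04 to 0.15 against replicate 2, and gave 1292 genes that rose and 289 that fell, a share of 81.7% upward in place of 64.3%. Of 142 named genes 96 rose or fell, and 66 of these did so under all 14 alternatives in which they were refitted.

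**Figure D2:**
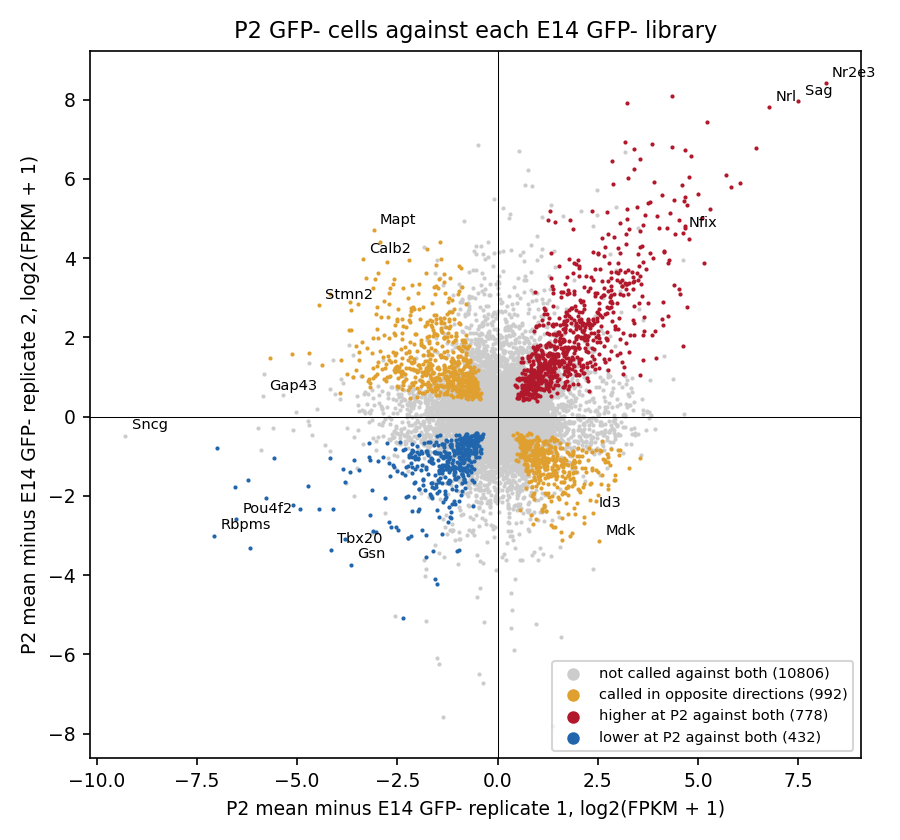
P2 GFP- mean minus E14 GFP- replicate 1 (horizontal axis) against P2 GFP- mean minus E14 GFP- replicate 2 (vertical axis), both on the log2(FPKM + 1) scale, 1 point per gene. The axes share the P2 libraries, so the spread along the rising diagonal is no result. Red marks the 778 genes that rose, blue the 432 that fell and ochre the 992 called in opposite directions.

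Photoreceptor transcription factors were among the genes that rose most. Of 16 listed, 15 passed the level filter and 10 rose, with none that fell. The median difference over the 15 was 3.06 and 3.21, beside 0.07 and 0.04 over all 13008 genes. Of the 15, 2 passed the filter only through P2, Nr2e3 and Samd7, and so had to differ. Of the 13 listed at 1 FPKM or more in an E14 library, 8 rose. In bulk RNA, more cells of a type and more RNA per cell cannot be told apart, which holds for every gene group that follows.

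Otx2, the homeobox factor that starts photoreceptor and bipolar fate, was listed at 48.4 and 54.7 FPKM at E14 and at 413 and 645 FPKM at P2. It was the photoreceptor factor on which the E14 libraries lay closest, and the P2 mean was 3.39 and 3.21 higher (SE 0.38, adjusted p = 0.000762). Crx, which acts with Otx2 on photoreceptor genes, was at 31.2 and 3.17 FPKM at E14 and 261 and 536 FPKM at P2. Crx was thus far higher in E14 replicate 1 than in replicate 2, and both lay below the P2 libraries (differences 3.54 and 6.49, SE 1.01, adjusted p = 0.0248). Without P2 replicate 2 the Crx call was lost (adjusted p = 0.105).

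Nrl, the leucine zipper factor that directs rod fate, was listed at 1.17 and 0.0677 FPKM at E14 and at 142 and 398 FPKM at P2. Its target Nr2e3, a nuclear receptor that represses cone genes in rods, went from 0.201 and 0.016 FPKM to 197 and 614 FPKM. Nr2e3 had the largest difference from the nearer E14 library of all named genes that rose (8.18 and 8.42, SE 0.64, adjusted p = 0.000135), and Nrl rose by 6.78 and 7.8 (SE 0.70, adjusted p = 0.000232). For both genes P2 replicate 2 lay more than 2-fold above P2 replicate 1. Samd7, a photoreceptor repressor of the Polycomb type, rose by 5.69 and 6.1 (SE 0.69, adjusted p = 0.0006). Neurod1, which is needed for photoreceptor survival, rose from 46.4 and 12.3 FPKM to 318 and 486 FPKM, and Rorb, an upstream activator of Nrl, from 33.7 and 27.3 FPKM to 88.1 and 103 FPKM. Thrb, the thyroid hormone receptor gene that directs green cone opsin, did not pass either test (10.7 and 5.75 FPKM at E14, 10.8 and 7.13 FPKM at P2, adjusted p = 0.501).

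The rod and shared phototransduction machinery was the list with the most genes that rose. All 34 listed genes are in the table, 30 passed the filter and 27 rose, with none that fell. Because 16 of the 30 passed only through P2, and so had to differ, the count over the 30 supports nothing by itself. Of the 14 listed at 1 FPKM or more in an E14 library, 11 rose. Without P2 replicate 2 it was again 27 of 30, and without the E18 libraries 25. The P2 libraries differed among themselves here. The level was higher in replicate 2 than in replicate 1 for 27 of the 30 genes, and the mean log2(FPKM + 1) over the 34 was 4.11 and 5.13. In the same libraries all genes of the S phase and G2 and M phase lists were lower in replicate 2 than in replicate 1, and the part of this in the rod values was not tested.

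Sag, the rod arrestin that ends the response to light, was already at 12.6 and 10.8 FPKM at E18, between 0.445 and 0.0432 FPKM at E14 and 172 and 394 FPKM at P2. It rose by 7.5 and 7.97 (SE 0.42, adjusted p = 4.6e-05). Rcvrn, the calcium sensor recoverin, was the photoreceptor gene on which the P2 libraries lay closest, at 27 and 26.8 FPKM after 0.101 and 0 FPKM at E14.

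The phosphodiesterase that lowers cyclic GMP in light rose in its rod catalytic subunit Pde6b, from 0 and 0.0201 FPKM to 26.5 and 115 FPKM, and in its inhibitory subunit Pde6g, from 2.32 and 0.388 FPKM to 52.4 and 118 FPKM. Gngt1, the gamma subunit of rod transducin, rose by 4.66 and 5.56 (SE 0.34, adjusted p = 0.0001). Genes of the outer segment disc rim moved with them. Prph2 rose by 6.44 and 6.79 (SE 0.67, adjusted p = 0.000354), and its partner Rom1, at 3.34 and 3.57 FPKM at E14, reached 103 and 283 FPKM. Rp1, a protein of the photoreceptor axoneme, rose from 0.517 and 0 FPKM to 29.5 and 76.9 FPKM.

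Cone genes rose as well. Of 14 listed cone genes 12 passed the filter and 8 rose, with none that fell, and 4 did so without the E18 libraries. Of the 10 listed at 1 FPKM or more in an E14 library, 6 rose. Opn1sw, the short wavelength cone opsin, was listed at 2.38 and 0.0134 FPKM at E14, 74.6 and 82.3 FPKM at E18 and 134 and 67.5 FPKM at P2. Its E18 level lay within the range of the P2 libraries, and it rose by 4.83 and 6.57 (SE 0.35, adjusted p = 4.8e-05). Gnat2, cone transducin, was at 5.25 and 0.298 FPKM at E14, 25.5 and 29.7 FPKM at E18 and 24 and 12.1 FPKM at P2. Its call was lost without P2 replicate 1 (adjusted p = 0.096). Arr3, cone arrestin, was low at E18 (0.318 and 0.641 FPKM) and reached 7.53 and 11.7 FPKM at P2. Arr3 passed the filter only through P2, and so had to differ. Unlike the rod genes, 4 of the 12 cone genes were higher in P2 replicate 2 than in replicate 1. That difference between the lists was not tested.

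**Figure D3:**
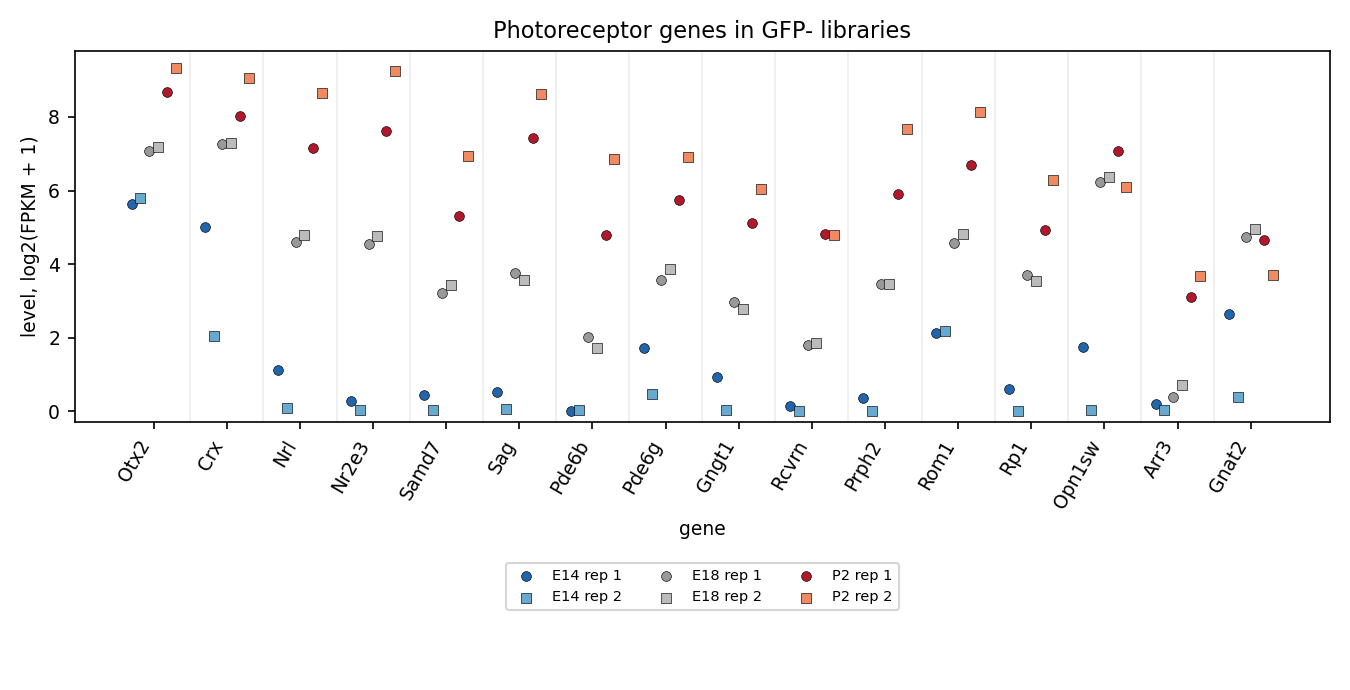
Level of 16 photoreceptor genes, log2(FPKM + 1), in the 6 GFP- libraries, 1 point per library (circles replicate 1, squares replicate 2; blue E14, grey E18, red and orange P2). Every gene lies higher at P2 than at E14, and P2 replicate 2 lies above P2 replicate 1 for most rod genes but not for Opn1sw and Gnat2.

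Promoters of photoreceptor genes are shown because these genes rose together with Otx2 and Crx, whose homeodomains bind the 6 letters TAATCC, read GGATTA on the other strand. RefSeq promoters (build GRCm38.p6, 250 bases before to 50 after the start) were searched for both. They hold 1 or the other in 8.14% of 27025 genes with a promoter, in 12 of the 35 rod and cone machinery genes with one, and in 77 of 567 genes that rose (13.6%) against 17 of 327 that fell (5.20%). The machinery genes that rose and hold the letters were ordered by their difference from the nearer E14 library, and the first 3 are printed 5′ to 3′ on the strand of the gene, with the match in capitals. For Sag (chr1:87803530-87803679, plus strand) and Cngb1 (chr8:95306586-95306735, minus strand), the rod cyclic nucleotide-gated channel subunit, the 150 bases before the start are given. For Gngt1 (chr6:3993952-3993981, plus strand) 30 bases are given.
Sag: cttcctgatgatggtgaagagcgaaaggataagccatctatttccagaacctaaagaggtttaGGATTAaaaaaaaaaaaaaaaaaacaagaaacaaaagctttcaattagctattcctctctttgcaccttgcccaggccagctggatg
Cngb1: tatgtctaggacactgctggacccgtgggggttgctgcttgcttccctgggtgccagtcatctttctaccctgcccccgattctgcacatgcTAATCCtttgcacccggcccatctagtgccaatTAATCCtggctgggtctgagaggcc
Gngt1: tcatattaggggGGATTAtgaagaagcttt
The match begins 87 bases before the start in Sag, 58 and 25 bases before it in Cngb1 and 44 before it in Gngt1. For Gngt1 a GENCODE transcript begins 216 bases before the RefSeq start, so that its match lies after that start. A match describes letters only. No binding was measured in these cells.

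Of 21 neurogenic genes, which act as neurons are born, 14 rose (66.7%) and none fell, with a median difference of 2.37 and 2.07. This count fell to 5 without the E18 libraries and to 9 without either P2 library. Of the 19 listed at 1 FPKM or more in an E14 library, 13 rose. Otx2 and Neurod1 also count among the photoreceptor factors that rose, and Dll1 among the Notch genes. The list mean was nearly the same in the E14 libraries (3.14 and 3.20) and higher at P2 (5.65 and 5.39), where the GFP+ libraries stood at 5.58 and 5.86. Gadd45g, a growth arrest gene of cells leaving the cycle, was at 5.66 and 11.4 FPKM at E14 and 83.7 and 93.8 FPKM at P2 (differences 3.75 and 2.86, SE 0.50, adjusted p = 0.00365). Dll1, the Notch ligand of newborn neurons, was at 11.6 and 14 FPKM and then 52.5 and 46.3 FPKM. Hes6, an antagonist of Notch signalling, was at 45.5 and 43.9 FPKM at E14 and 264 and 219 FPKM at P2, and its call was lost without P2 replicate 1 (adjusted p = 0.0639) or replicate 2 (adjusted p = 0.0574).

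Atoh7 and Neurog2, factors of early neurogenesis, were not called against both E14 libraries. Atoh7, which gives progenitors the competence to form ganglion cells, was listed at 6.03 and 45.1 FPKM at E14 and at 11.1 and 2.72 FPKM at P2. It was lower at P2 than E14 replicate 2 (adjusted p = 0.0233) and not called against replicate 1 (adjusted p = 0.958). Neurog2 was at 16 and 11.6 FPKM at E14 and 36.4 and 25.5 FPKM at P2. Both P2 libraries lay above both E14 libraries (differences 0.89 and 1.33, SE 0.50), with an adjusted p of 0.199 against replicate 1 and 0.0721 against replicate 2.

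Of 25 Notch pathway genes, the receptor Notch1, the ligand Dll1, the glycosyltransferase Mfng and the effectors Hes5, Hes6 and Hey2 rose. These were 6 genes (24%), and none fell. It was 2 without the E18 libraries and 3 without P2 replicate 2. Hey2 was listed at 0.587 and 2.03 FPKM at E14 and 14.8 and 15.9 FPKM at P2 (differences 3.36 and 2.43, SE 0.40, adjusted p = 0.00284). Mfng rose from 2.62 and 8.08 FPKM to 36.6 and 37.6 FPKM. Notch1, at 2.0 and 20.7 FPKM at E14 and 66.5 and 80.6 FPKM at P2, lost its call without P2 replicate 2 (adjusted p = 0.094). Hes1, the other main Notch effector of progenitors, lay between the E14 libraries at P2 (78 and 36.8 FPKM against 6.33 and 164).

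Amacrine cells are inhibitory interneurons that use GABA or glycine. Of 36 listed genes 30 passed the filter and 12 rose, with none that fell, and the median difference was 1.04 and 2.86. Of the 26 listed at 1 FPKM or more in an E14 library, 8 rose. Tfap2a, an amacrine transcription factor, was at 22.2 and 7.55 FPKM at E14 and 107 and 55.4 FPKM at P2. It rose by 1.75 and 3.19 (SE 0.45, adjusted p = 0.0165), a call that was lost without P2 replicate 1 (adjusted p = 0.06). Its relative Tfap2b was called against replicate 2 only (71.5 and 20.8 FPKM at E14, 200.3 and 123 FPKM at P2).

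Gad1, which makes GABA, was listed at 11.8 and 0.147 FPKM at E14 and 39.2 and 28.9 FPKM at P2 (differences 1.44 and 4.92, SE 0.24, adjusted p = 0.00239). Slc32a1, which loads GABA and glycine into vesicles, was at 7.07 and 0.129 FPKM and then 28.5 and 29.2 FPKM. Gad2 was called against replicate 2 only, and the glycine transporter gene Slc6a9 against neither (2.56 and 1.74 FPKM at E14, 0.992 and 3.17 FPKM at P2). Among the amacrine genes with the smallest p, Neurod2, a basic helix-loop-helix factor, rose from 0.388 and 0 FPKM to 9.27 and 14.4 FPKM, and Npy, a neuropeptide, from 0 and 0.243 FPKM to 20.7 and 16.3 FPKM. C1ql2, a secreted C1q-like protein of synapses, was at 0.171 and 0.0357 FPKM at E14 and 27.5 and 21.5 FPKM at P2 (differences 4.43 and 4.61, SE 0.26, adjusted p = 7.2e-05). Neurod2, Npy and C1ql2 passed the filter only through P2, and so had to differ.

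Of 24 listed bipolar cell genes 14 passed the filter and 2 rose, Lhx4 and Pcp2 (14.3%, beside 5.98% of all genes). It was 1 without P2 replicate 2 and none without the E18 libraries. Pcp2 passed the filter only through P2, and of the 12 genes listed at 1 FPKM or more in an E14 library 1 rose. The defining genes Vsx1 and Grm6 reached at most 0.0831 and 0.211 FPKM in the 4 libraries and are no members. Horizontal cell genes, 13 of 14 listed, held none that rose or fell by limma, and at an unadjusted p under 0.05 it was 1 in each direction. The direction changed with the alternative. It was 3 that rose with the 6 GFP- libraries alone, and 3 that rose and 1 that fell without the E14 GFP+ libraries. With quantile scaling 1 rose, while the calls without P2 replicate 1 were falls only. In the main fit, at an adjusted p under 0.05, 5 were lower at P2 than in E14 replicate 1 and 3 higher than in replicate 2. Onecut1, a factor of early born neurons, was at 21.1 and 4.18 FPKM at E14 and 4.02 and 1.5 FPKM at P2, below both E14 libraries but called against replicate 1 only. Lhx1, a LIM homeobox gene of horizontal cells, was at 4.34 and 0.0482 FPKM and then 2.89 and 0.0961 FPKM, so that the P2 libraries spanned most of the range of the E14 libraries.

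Ganglion cell genes fell against both E14 libraries in 6 of 34 members (17.6%), Pou4f1, Pou4f2, Rbpms, Irx1, Irx2 and Sox11, and none rose. Of 43 listed, 9 did not pass the filter. Among the 34, Pou4f2, Irx1 and Irx2 passed only through E14, and so had to differ. These 3 are among the 6 that fell. The E14 libraries gave opposite pictures of this list. Against replicate 1, 28 genes were lower at P2 with a median of -3.68, and against replicate 2, 15 were higher and 6 lower with a median of 1.15. Calls in opposite directions numbered 10.

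Rbpms, an RNA-binding protein used as a ganglion cell marker, was listed at 306 and 17.5 FPKM at E14, 34.5 and 42 FPKM at E18 and 1.93 and 0.80 FPKM at P2. Both E14 libraries lay above both P2 libraries, although they differed widely, and the gene changed by -7.06 and -3.01 (SE 0.36, adjusted p = 0.000796). Pou4f2, the POU factor of ganglion cell differentiation, was at 114 and 6.61 FPKM and then 0.512 and 0.0473 FPKM (differences -6.52 and -2.6, SE 0.42, adjusted p = 0.00262). Its relative Pou4f1 was at 278 and 2.82 FPKM at E14 and 1.61 and 0.846 FPKM at P2. The Pou4f1 call was lost without P2 replicate 2 (adjusted p = 0.175). Irx2, an Iroquois homeobox gene, was at 109 and 3.04 FPKM and then 0.317 and 0.0661 FPKM (differences -6.54 and -1.77, SE 0.30, adjusted p = 0.00319).

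Other ganglion cell genes depended on the E14 library. Isl1, a LIM homeobox gene of ganglion and other inner retinal cells, was at 272 and 11 FPKM at E14 and 15.7 and 5.5 FPKM at P2, lower than replicate 1 (adjusted p = 0.000862) and not called against replicate 2 (adjusted p = 0.836). Sncg, gamma-synuclein, was at 1334 FPKM in E14 replicate 1, 1.99 FPKM in replicate 2 and 2.64 and 0.262 FPKM at P2. Its difference of -9.28 from replicate 1 was the lowest among the named genes (SE 0.85, adjusted p = 0.000133), while that from replicate 2 was -0.48 (adjusted p = 0.694). At E18 it was still at 137 and 166 FPKM.

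Among the 12 genes that fell most against the nearer E14 library were, besides Rbpms and Pou4f2, Gsn, Tbx20, Rprm, Pou2f2, Rbms1, Cachd1, Tmem132c, Fst and Scd1. Of these, Pou4f2, Gsn, Tbx20, Fst and Scd1 passed the filter only through E14, and so had to differ. The E14 libraries lay close on several of the 12. Gsn, the actin-severing protein gelsolin, was listed at 15.4 and 16.1 FPKM at E14, 2.46 and 3.85 FPKM at E18 and 0.467 and 0.13 FPKM at P2 (differences -3.67 and -3.74, SE 0.33, adjusted p = 0.000228). Rbms1, an RNA-binding protein, was at 20.8 and 20.2 FPKM and then 3.49 and 1.47 FPKM.

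Tbx20, a T-box factor, was at 17.4 and 9.58 FPKM at E14 and 0.0541 and 0.00564 FPKM at P2, with E18 at 2.08 and 2.4 FPKM. Its differences were -4.16 and -3.36 (SE 0.77, adjusted p = 0.0115). Rprm, a gene of G2 arrest, was at 70 and 42.1 FPKM and then 5.16 and 3.12 FPKM (differences -3.82 and -3.1, SE 0.65, adjusted p = 0.00764). Both genes had E18 levels between those of E14 and P2. Pou2f2, a POU factor, was at 45.5 and 42.2 FPKM at E14, but its call was lost without P2 replicate 1 (adjusted p = 0.0766) or replicate 2 (adjusted p = 0.136). That of Fst, the activin inhibitor follistatin, was lost without replicate 2 (adjusted p = 0.0788).

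**Figure D4:**
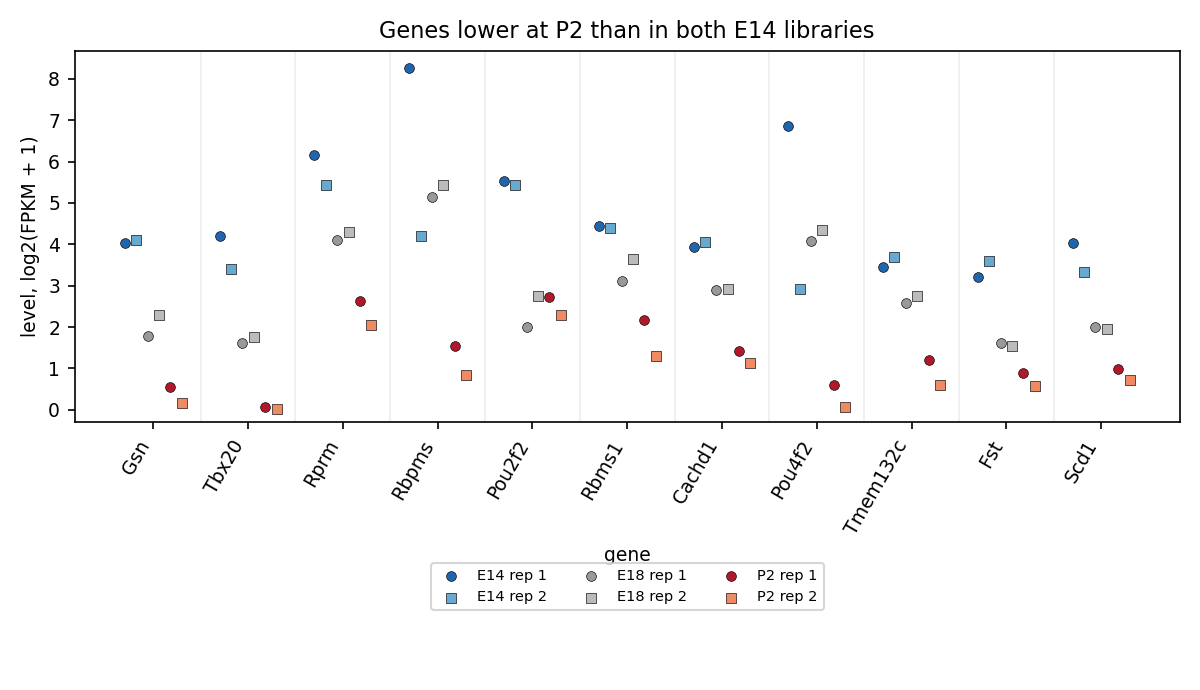
Level of 11 of the 12 named genes that fell most against the nearer E14 library, log2(FPKM + 1), in the 6 GFP- libraries, 1 point per library (circles replicate 1, squares replicate 2; blue E14, grey E18, red and orange P2). Both P2 points lie below both E14 points for every gene, and for Rbpms and Pou4f2 the E14 points lie far apart.

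Of the 32 gene lists, that of general neuronal genes had the largest share of calls in opposite directions. Of 35 pan-neuronal genes 25 were lower at P2 than in E14 replicate 1 and 31 higher than in replicate 2, and 21 were both. Only Insm1, a factor of newborn neurons, rose and none fell, and its call was lost without P2 replicate 2 (adjusted p = 0.059). Mapt, the axonal tubulin-binding protein tau, was listed at 437 and 0.957 FPKM at E14 and 49.7 and 51.1 FPKM at P2. The P2 libraries lay close together and between the E14 libraries (differences -3.09 and 4.71, SE 0.79, adjusted p = 0.0158). Ina, an intermediate filament of neurons, was at 874 and 4.59 FPKM and then 57.5 and 38.4 FPKM. Calb2, calretinin, was at 188 and 0.164 FPKM and then 17.7 and 17.1 FPKM (differences -3.36 and 3.98, SE 0.44, adjusted p = 0.000695). Gap43, a growth cone protein, was at 1705 and 19.6 FPKM at E14 and at 31.3 and 25.8 FPKM at P2, lower than replicate 1 (adjusted p = 4.97e-05) and not called against replicate 2 (adjusted p = 0.378).

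Of 60 members in axon growth and guidance 5 rose (8.33%) and Ntn1 fell (1.67%), shares near those over all genes (5.98% and 3.32%). It was 4 that fell with quantile scaling and 7 without the E14 GFP+ libraries. Robo3, a guidance receptor best known from midline crossing, was at 2.82 and 0.591 FPKM at E14, 9.85 and 10.5 FPKM at E18 and 72 and 151 FPKM at P2 (differences 4.78 and 6.05, SE 0.41, adjusted p = 0.000118). Epha8, an ephrin receptor, was at 7.37 and 0.16 FPKM and then 71.8 and 106 FPKM. Ntn1, the guidance cue netrin 1, was at 1.36 and 5.3 FPKM at E14 and 0.091 and 0.034 FPKM at P2 (differences -1.15 and -2.57, SE 0.19, adjusted p = 0.00193). Ntn1 passed the filter only through E14, and so had to differ.

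Of 56 genes of synaptic vesicles and release, 9 rose and none fell, and 20 were called in opposite directions. Of the 54 listed at 1 FPKM or more in an E14 library, 7 rose. The ribbon synapse is the continuous release site of photoreceptors and bipolar cells. Cplx3, a complexin of ribbon synapses, was listed at 3.47 and 4.2 FPKM at E14 and 33.7 and 79.6 FPKM at P2 (differences 3.56 and 3.35, SE 0.46, adjusted p = 0.00135). Cplx4, the other ribbon complexin, was at 0.11 and 0.0138 FPKM and then 2.28 and 6.91 FPKM. Cplx4 and Slc17a7 passed the filter only through P2, and so had to differ. Slc17a7, the vesicular glutamate transporter of photoreceptors and bipolar cells, rose from 0.559 and 0.0853 FPKM to 20.9 and 37.9 FPKM (differences 4.23 and 4.75, SE 0.36, adjusted p = 0.000135).

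Of 36 neurotransmitter receptor genes 3 rose (8.33%) and 1 fell (2.78%), shares near those over all genes. Only 1 rose without the E18 libraries, as with a pseudocount of 0.1, and of the 34 listed at 1 FPKM or more in an E14 library 2 rose. Chrnb4, a nicotinic receptor subunit, rose from 11.8 and 6.78 FPKM to 21.3 and 25.7 FPKM, and Gabrg3, a subunit of the GABA receptor, fell from 5.02 and 3.89 FPKM to 0.471 and 0.847 FPKM. Gabrg3 passed the filter only through E14, and so had to differ. Slc12a5, the potassium-chloride exporter whose rise makes GABA inhibitory in maturing neurons, was at 9.8 and 3.68 FPKM at E14 and 19.4 and 25.2 FPKM at P2. Both P2 libraries lay above both E14 libraries, with an adjusted p of 0.0596 against replicate 1 and 0.00352 against replicate 2.

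Genes of dividing cells, counted in this sorted fraction as a check, moved with the E14 library chosen. None of 40 S phase genes and none of 45 G2 and M phase genes rose or fell, and at an unadjusted p under 0.05 against both E14 libraries the count was also 0. By limma, 43 of the 45 were higher at P2 than in E14 replicate 1 and 8 were lower than in replicate 2, and of the 40 it was 31 and 23. Every gene of both lists was lower in P2 replicate 2 than in P2 replicate 1. Top2a, the topoisomerase of dividing cells, was at 7.16 and 111 FPKM at E14 and 147 and 89.1 FPKM at P2.

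Of 23 progenitor genes 5 rose, Hes5, Notch1, Sox8, Sox9 and Rlbp1, and it was 2 without the E18 libraries or without P2 replicate 2 and 3 without P2 replicate 1. The 5 that rose make 21.7% of the 23, and Hes5 and Notch1 also count among the Notch genes above. Sox8, which late progenitors and Müller glia share, was at 0.627 and 2.95 FPKM at E14 and 67.2 and 48.5 FPKM at P2 (differences 5.16 and 3.88, SE 0.80, adjusted p = 0.00732). Mdk, the growth factor midkine, Id3 and Yap1 were called higher than E14 replicate 1 and lower than replicate 2. Mdk stood at 12.7 and 701 FPKM at E14 and 84.2 and 72.7 FPKM at P2.

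**Figure D5:**
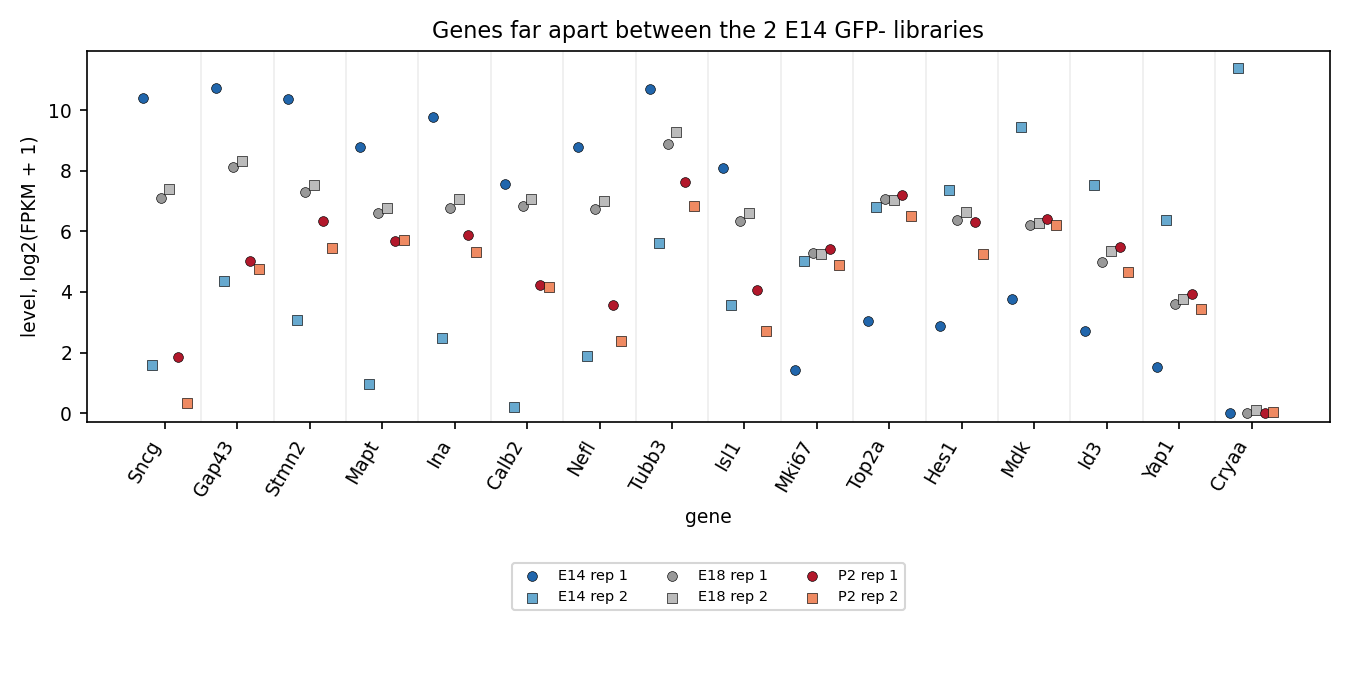
Level of 16 genes that differ widely between the E14 GFP- libraries, log2(FPKM + 1), in the 6 GFP- libraries, 1 point per library (circles replicate 1, squares replicate 2; blue E14, grey E18, red and orange P2). Neuronal genes from Sncg to Isl1 are high in E14 replicate 1, genes from Mki67 to Yap1 and the lens gene Cryaa are high in E14 replicate 2, and for most of them the P2 points lie between.

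Müller glia are the last cell type born and share many genes with progenitors. Of 20 members of this list 6 rose and Vim fell, and 3 rose without the E18 libraries or without P2 replicate 2. The shares in the main fit were 30% that rose and 5% that fell. Of the 19 listed at 1 FPKM or more in an E14 library, 5 rose. Kcnj10 passed the filter only through P2, and so had to differ. Rlbp1, a retinaldehyde-binding protein of glia, was listed at 1.52 and 6.0 FPKM at E14 and 39.3 and 86.2 FPKM at P2 (differences 4.55 and 3.08, SE 0.66, adjusted p = 0.00832). The P2 GFP+ libraries held 188 and 79.5 FPKM. Slc1a3, the glial glutamate transporter, rose from 3.92 and 13.5 FPKM to 55.5 and 64.6 FPKM, and Kcnj10, a glial potassium channel, from 0.0298 and 0.0747 FPKM to 4.23 and 5.29 FPKM. How far these genes came from glia or from progenitor RNA in the fraction was not tested.

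The nuclear factor I genes mark late retinal development. Of 23 members of the list with other stage-dependent factors 4 rose (17.4%) and 3 fell (13%). Without the E18 libraries, or without P2 replicate 2, it was 2 and 0. Nfix was listed at 0.433 and 0.424 FPKM at E14, 1.47 and 2.19 FPKM at E18 and 24.3 and 47.7 FPKM at P2. The E14 libraries nearly coincided on it, both below 1 FPKM, and it rose by 4.61 and 4.62 (SE 0.51, adjusted p = 0.000529). Nfix passed the filter only through P2, and so had to differ. Of the 22 members listed at 1 FPKM or more in an E14 library, 3 rose. Nfib rose from 1.85 and 5.76 FPKM to 22.1 and 33.6 FPKM, while Nfia, at 0.657 and 2.72 FPKM and then 11.5 and 11.9 FPKM, was called against replicate 1 only. Lin28b, an RNA-binding repressor of let-7 maturation found in early tissue, was lower at P2 in both comparisons (4.13 and 20.4 FPKM against 0.564 and 0.398), with an adjusted p of 0.052 against replicate 1 and 0.00269 against replicate 2.

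Of 31 members that act in cholesterol and fatty acid synthesis, 5 fell (16.1%), among them Mvd, Scd1, Scd2 and Elovl6. Elovl2 and Elovl4 rose (6.45%, near the 5.98% of all genes). Without P2 replicate 2 it was 1 and 1, and without the E18 libraries 2 and 1. For 24 of the 31 both P2 libraries lay below both E14 libraries, beside 18.7% of all 13008 genes. Scd1, a desaturase that makes monounsaturated fatty acids, was at 15.4 and 9.11 FPKM at E14 and 0.99 and 0.651 FPKM at P2 (differences -3.18 and -2.48, SE 0.37, adjusted p = 0.002). Scd1 passed the filter only through E14, and so had to differ. Elovl2, an elongase of the very long polyunsaturated fatty acids that fill outer segment discs, rose from 26.4 and 13.1 FPKM to 54.4 and 87.2 FPKM. Of 25 glycolysis genes only the lactate dehydrogenase gene Ldha rose (4%, beside 5.98% of all genes), from 272 and 258 FPKM to 502 and 909 FPKM. Its call was lost without P2 replicate 2. Of 55 nuclear genes of oxidative phosphorylation none rose, and the complex I subunit gene Ndufa1 fell (1.82%, beside 3.32% of all genes). Ndufa1 went from 191 and 195 FPKM to 70.4 and 74.2 FPKM, a call that was lost under 9 of 14 alternatives.

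Among 24 immediate early and heat shock members 5 rose and 1 fell, which became 3 and 0 without P2 replicate 2, 4 and 0 without P2 replicate 1 and 2 and 0 without the E18 libraries. In the main fit the shares were 20.8% and 4.17%, beside 5.98% and 3.32% of all genes. The heat shock gene Hspa1a went from 0.987 and 5.81 FPKM to 19.7 and 38.2 FPKM. The Hspa1a call was lost without P2 replicate 2 (adjusted p = 0.0766). Such genes respond to handling of tissue, and their part in the results was not tested. Markers of other tissues differed between libraries. The erythroid genes summed to 2531 and 371.7 FPKM at E14 and 77.0 and 101.3 FPKM at P2, and the alpha-globin gene Hba-a1 fell (-6.23 and -1.61, SE 0.33, adjusted p = 0.00686). Mesenchyme genes summed to 19.0 FPKM in E14 replicate 1, 366.5 FPKM in replicate 2 and 61.0 and 56.6 FPKM at P2, and pigment epithelium genes to 16.6, 237.9, 53.6 and 103.2 FPKM. Of the pigment epithelium sums, Rlbp1, which is also on the glial list, held 1.52, 6.0, 39.3 and 86.2 FPKM. Most of the P2 sums thus came from this gene. Microglia genes summed to between 11.4 and 25.4 FPKM and astrocyte genes to between 23.6 and 45.8 FPKM in the 4 libraries. Differences from E14 replicate 2 alone include genes of these tissues, and their part in single genes was not tested. The 23 endothelial and pericyte genes summed to 13.0 and 45.0 FPKM at E14 and 118.5 and 114.4 FPKM at P2, and 2 of 4 members rose. Most of the P2 sums came from Kdr alone. The mean log2(FPKM + 1) over the 23 was 0.40 and 1.03 at E14 and 0.79 and 0.80 at P2. Cldn5, a tight junction gene of vessels, passed the filter only through P2, at 0.537 and 0.442 FPKM at E14 and 9.53 and 3.58 FPKM at P2. Its call (adjusted p = 0.0344) was lost without P2 replicate 1 (adjusted p = 0.131). The vascular receptor gene Kdr rose from 7.16 and 11 FPKM to 98.8 and 98.6 FPKM, while the P2 GFP+ libraries held 226 and 233 FPKM.

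The change in GFP- cells was also set against that in GFP+ cells from E14 to P2. For 112 genes (0.861% of genes) it was higher in GFP- cells and for 35 (0.269%) lower, taken with either E14 GFP- library (interaction, adjusted p under 0.05 in each). Without P2 GFP- replicate 1 there were 231 such genes in all, and without the E18 libraries 39. The E14 GFP+ libraries on which this rests also differed in lens RNA, with a lens list mean of 0.09 in replicate 1 and 1.63 in replicate 2, and the part of that in these values was not tested. Of the 30 rod machinery members 15 were higher in this sense, but 16 of the 30 passed the filter only through P2 GFP- cells, and of the 14 listed at 1 FPKM or more in an E14 GFP- library it was 2. Rcvrn had GFP+ levels of 0 and 0 FPKM at E14 and 0.351 and 0.414 FPKM at P2, and the interaction was 4.19 and 4.33 (SE 0.22, adjusted p = 0.000345). Sag reached 6.95 and 5.83 FPKM in P2 GFP+ cells (interaction 4.65 and 5.12, SE 0.54, adjusted p = 0.00226). Crabp1, a retinoic acid binding protein, was not called in GFP- cells, where both P2 libraries (253 and 190.0 FPKM) lay above both E14 libraries (86 and 52). In GFP+ cells it went from 22.9 and 114 FPKM to 3.87 and 7.28 FPKM, and the interaction was 4.38 and 5.1 (SE 0.95, adjusted p = 0.0182). In the other direction, Gsn changed by -0.77 in GFP+ cells (interaction -2.9 and -2.96, SE 0.43, adjusted p = 0.00612). Its GFP+ levels were low already at E14, which left little room to fall on this scale (0.61 and 1.62 FPKM, then 0.227 and 0.178 FPKM at P2). Anxa6, an annexin, fell in GFP- cells from 12 and 11.4 FPKM to 3.38 and 4.36 FPKM while its GFP+ levels went from 2.61 and 1.82 FPKM to 6.18 and 5.8 FPKM.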

How the data were processed

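Of 25 samples, 12 RNA libraries of GFP-sorted CD1 mouse retina were used, grouped by stage and sort per the labels, and 13 ATAC libraries of GFP+ cells were not analysed here. The labels name polyA RNA and a TruSeq total RNA kit. The values deposited by the authors were taken as FPKM, judged by their fractions and by library totals of 383872 to 504845. Which program and annotation made them is not given in the sources used here. The submitters' processing notes list, without their roles, the builds mm10 and mm9 and the tools featureCounts 1.5.3, HISAT2, Bowtie2, SAMtools 1.5, bedtools 2.26.0 and Picard 2.10.7. Steps among low values did not give whole reads, so depth is unknown.

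Genes at 1 FPKM or more in 2 of 12 libraries (14276) were fitted as log2(FPKM + 1) by limma 3.58.1 (R 4.3.3), with an intensity trend, in 7 groups, each E14 GFP- library its own (5 residual degrees of freedom), and in 6 groups with these pooled (6 residual degrees of freedom). The Benjamini-Hochberg adjustment ran over the 14276 genes, with a threshold of 0.05. Scripts were tested on simulated data. Alternatives covered the pseudocount, filter, scaling, variance model, libraries left out and a replicate block.

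The members and the 32 gene lists were chosen with earlier results of these data known. Named genes were 57 anchors, the 12 most changed each way against the nearer E14 library (mean of at least 5 FPKM, no overlap, no predicted genes), up to 4 called genes per list with the smallest p, and 6 each way called in opposite directions or by interaction. Not all are described, and results on some genes are not reported here. Genes listed as called within a list, and list genes outside this rule, were chosen after their values were seen. Promoters are RefSeq's, and GENCODE vM21 transcripts gave other starts.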

Additional observations from a re-analysis of the deposited data

Results flagged for a closer look

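The change from E14 to P2 differed between GFP- and GFP+ cells, by limma's test of the interaction with each E14 GFP- library, for 112 genes in the direction of GFP- cells and 35 in that of GFP+ cells. The smaller of both interaction values, on the log2(FPKM + 1) scale, is given for named genes among them, and no cause was tested. Among genes of rods and of photoreceptors in general these were Sag (4.65), Rcvrn (4.19), Pde6b (3.97), Gngt1 (3.76), Slc17a7 (3.71), Rp1 (3.67), Nr2e3 (3.62), Prph2 (3.42), Pde6g (2.75) and Aipl1 (2.18). Among genes of cones they were Rd3l (3.78), Opn1sw (3.56), Arr3 (3.01) and Kcne2 (1.89). Genes of amacrine cells, synapses and neurotransmission were C1ql2 (4.19), Lamp5 (3.3), Slc12a5 (2.06), Slc32a1 (1.96), Neurod2 (1.55), Gad1 (1.22) and Chrnb4 (1.19). Others in the same direction were Crabp1 (4.38), Robo3 (1.8), Elovl2 (1.52) and Rgr (1.02). In the other direction were Gsn (-2.9), Anxa6 (-2.49), Irx3 (-2.32), Igf1 (-1.86), Fblim1 (-1.7), Sptb (-1.66) and Irx1 (-1.6). Sag, Rcvrn, Pde6b, Gngt1, Slc17a7, Rp1, Nr2e3 and Prph2 passed the level filter only through P2 GFP- cells, and so had to differ there. The same holds for Arr3, Kcne2, C1ql2, Neurod2 and Rgr. Gsn, Igf1 and Irx1 passed only through E14 GFP- cells, and were at most at 1.62 FPKM in the E14 GFP+ libraries.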

How the results depend on the processing

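Each count is of genes among the 13008 called by limma at an adjusted p under 0.05, and the cause of a change was not tested unless it follows from the alternative itself. Without the 4 E18 libraries, which leaves fewer samples to estimate the spread, 595 genes were called against both E14 libraries in place of 1210, 3321 against replicate 1 in place of 5051, 2666 against replicate 2 in place of 4542, 83 with the E14 libraries pooled in place of 970, and 39 in the comparison with GFP+ cells in place of 147. Without the 2 E14 GFP+ libraries, an alternative chosen after seeing the data, 1821 were called against both. Asking instead that each P2 library differ at least 2-fold from each E14 library, with no test, gave 679 genes, 506 higher (3.89%) and 173 lower (1.33%). In the pooled comparison the 6 GFP- libraries alone gave 136 genes. The 4 GFP- libraries of E14 and P2 alone, with 2 residual degrees of freedom, gave 0 by limma, with 1263 at an unadjusted p under 0.05, and no other tool was run. Leaving out 1 library gave 129 (P2 replicate 2) to 5056 (E14 replicate 2) pooled calls, with 598 without P2 replicate 1 and 4535 without E14 replicate 1. It gave 4226 (P2 replicate 1) and 2807 (P2 replicate 2) against E14 replicate 2, 621 (P2 replicate 2) to 1324 (P2 replicate 1) against both, and 120 (P2 replicate 2) to 231 (P2 replicate 1) in the comparison with GFP+ cells. That comparison gave 88 genes with a pseudocount of 0.1 and 97 with a minimum of 5 FPKM. Quantile scaling gave 755 higher and 539 lower against both, a share of 58.3% higher. Under rescaling the share of higher calls was 82.4% in place of 66.3% for the pooled comparison and 71.4% in place of 53.2% against E14 replicate 1.

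The labels do not say that a replicate number marks a shared litter or day, and the numbers were not taken as pairs. The deviations of same-numbered E14 and P2 GFP- libraries from their group means correlated at -0.0887 across genes. Over the 15 pairs of groups the range was -0.569 (P2 GFP+ with P2 GFP-) to 0.325 (E14 GFP+ with E14 GFP-), and 3 were above 0.1, the others of these being E14 GFP- with P2 GFP+ (0.269) and E18 GFP+ with E18 GFP- (0.115). With the number as a replicate block, 1112 genes were called against both (1013 of them also without the block), 4905 against replicate 1, 4143 against replicate 2, 905 pooled and 106 in the comparison with GFP+ cells.

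No named gene that rose or fell reversed under any alternative. Without the E18 libraries the following lost their call, with the larger adjusted p by limma in brackets: Cldn5 (0.1), Crx (0.0836), Fst (0.0714), Gnat2 (0.0812), Hes5 (0.102), Hes6 (0.0697), Hspa1a (0.0658), Insm1 (0.0532), Ldha (0.104), Lhx4 (0.0541), Mfng (0.0512), Mvd (0.0597), Ndufa1 (0.113), Notch1 (0.0829), Pcp2 (0.0747), Pou2f2 (0.11), Pou4f1 (0.117), Sox11 (0.0713), Tbx20 (0.0535) and Tfap2a (0.0659). Fragment counts were not used here, so the precision of low levels is unknown.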

Other observations

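Genes outside the lists also rose. Fabp7, a fatty acid binding protein of glia and progenitors, was listed at 8.0 and 0.936 FPKM in the E14 GFP- libraries, 86 and 78.4 FPKM at E18 and 252 and 449 FPKM at P2 (differences 5.23 and 7.44, SE 1.19, adjusted p = 0.00938 by limma). Prss22, a serine protease, was near 0 up to E18 (0.109 and 0.0815 FPKM) and at 24.9 and 44.1 FPKM at P2 (differences 5.09 and 5.02, SE 0.36, adjusted p = 0.000127). Prss22 was among the 12 genes that rose most, but it passed the filter only through P2, and so had to differ.

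Igf1, insulin-like growth factor 1, fell against both E14 libraries. It was listed at 63.6 and 3.85 FPKM at E14, 6.92 and 7.51 FPKM at E18 and 0.216 and 0.127 FPKM at P2 (differences -5.79 and -2.05, SE 0.23, adjusted p = 0.000543). Igf1 passed the filter only through E14, and so had to differ. Fblim1, a protein of cell-matrix contacts, went from 73.4 and 9.17 FPKM to 1.48 and 0.884 FPKM (differences -5.11 and -2.24, SE 0.25, adjusted p = 0.000581). Both were higher in E14 replicate 1, the library rich in ganglion cell RNA, and whether they belong to that cell type was not tested.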
